A study of Mus musculus with 14 samples.

Results

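The subjects of this account are the transcripts of B2m, H2-K1 and H2-D1, 3 of the 10980 genes of a table, taken by symbol. H2-K1 and H2-D1 are the classical MHC class I genes of C57BL/6 mice, and B2m encodes the partner chain of their products. The 3 are called class I genes here. The RNA came from full thickness back skin of wild type C57BL/6 mice whose fur had been removed, either unirradiated or taken 0.5, 2, 6, 12 or 24 h after irradiation with ultraviolet (UV) light of mixed wavelengths. The 14 libraries comprise 3 each at 2 and 6 h and 2 each for unirradiated skin and for 0.5, 12 and 24 h. Every group, the unirradiated one included, shares strain, genotype and site. No source used here gives the age, the UV dose or the number of animals behind a library. Each measurement is an FPKM value, a fragment count divided by transcript length and by library size, so levels of different genes can be set side by side per length.

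MHC class I molecules show peptides from inside the cell to CD8+ T cells. H2-K1 and H2-D1 encode the heavy chains H-2K and H-2D, which hold the peptide and cross the membrane. B2m encodes beta-2-microglobulin, the small partner chain that heavy chains need to reach the cell surface. Nearly all nucleated cells carry class I, whereas class II molecules (H2-A and H2-E with their invariant chain Cd74) are made mainly by antigen-presenting cells, which in skin include Langerhans cells, dermal dendritic cells and macrophages. UV light is known to drive Langerhans cells out of the epidermis. A loss of antigen-presenting cells would lower class II transcripts and would touch class I transcripts only as far as those cells supply them.

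B2m lies on chromosome 2 at 122147686 to 122153083 on the plus strand of GRCm38. H2-K1 and H2-D1 lie on chromosome 17, at 33996017 to 34000347 on the minus strand and at 35262730 to 35267499 on the plus strand, at either end of the H-2 complex. Their promoters are shown because class I genes share elements upstream of the start: a kappa B site, an interferon regulatory factor (IRF) site, and an X2 and Y box through which the class I transactivator Nlrc5 is known to act. The stretches below are from RefSeq on GRCm38.p6, read 5′ to 3′ on the strand of the gene, with the matches to the searched letters in capitals. The B2m window is chr2:122147487-122147686 and the H2-K1 window is chr17:34000348-34000547, each the 200 bases before the start. For H2-D1 only the stretch from the kappa B match to the IRF match is shown, chr17:35262923-35262951. Its place is counted from the RefSeq start, whereas the gene annotation starts H2-D1 earlier, at 35262730, and all 200 bases of its window lie in an annotated exon there.
B2m: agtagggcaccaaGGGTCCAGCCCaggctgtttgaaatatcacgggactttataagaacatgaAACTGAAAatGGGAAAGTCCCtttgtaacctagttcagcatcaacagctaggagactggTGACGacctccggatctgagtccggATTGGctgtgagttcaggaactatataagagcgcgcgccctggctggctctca
H2-K1: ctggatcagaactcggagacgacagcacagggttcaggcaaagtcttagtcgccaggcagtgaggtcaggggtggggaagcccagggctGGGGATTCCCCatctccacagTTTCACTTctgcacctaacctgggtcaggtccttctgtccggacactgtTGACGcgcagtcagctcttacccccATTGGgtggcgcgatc
H2-D1: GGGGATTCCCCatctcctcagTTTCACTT

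The letters searched, on both strands, were GGG and CCC with any 5 bases between them for kappa B, AANNGAAA for the IRF site, TGACG for the X2 box and CCAAT for the Y box. They were chosen with these promoters in view. Over all 32851 RefSeq promoter windows of the same length, 10.6% held the kappa B letters, 17% the IRF letters, 15.7% TGACG and 29.3% CCAAT. All 4 stood together in 21 windows, 0.0639% of the total, and the B2m, H2-K1 and H2-D1 windows were among them. In B2m the kappa B letters stood at -187 to -177 and again at -127 to -117 from the start, with the IRF letters between them at -137 to -130. In H2-K1 the kappa B letters stood at -111 to -101 and the IRF letters on the other strand at -90 to -83. The H2-D1 window lined up with that of H2-K1 over 140 bases, of which 127 (90.7%) were identical. Of the class II genes in the promoter table, the H2-Aa window held the kappa B, TGACG and CCAAT letters without AANNGAAA, and the H2-Eb1 window held CCAAT alone. A match of letters is a description and shows no binding.

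The table holds 3 sets of libraries that differ in number format and header. Set 1 has 6 libraries, 1 per time. Set 2 has 5, without 0.5 h, and set 3 has 3, at 0.5, 2 and 6 h, with no unirradiated library. Set 2 libraries hold 12327907 to 13069488 recovered reads and set 3 libraries 14739474 to 15550419, while the depth of set 1 is unknown. B2m rested on 6333 to 9395 reads per library in sets 2 and 3, H2-K1 on 3755 to 8698 and H2-D1 on 1858 to 3713. In the reference annotation, 0 of the 50-base stretches of the B2m transcript occur in another gene, against 138 of 1570 (8.8%) for H2-K1 and 294 of 2053 (14.3%) for H2-D1, so reads of both heavy chain genes could be split between relatives. The planned limma fit, which ignores the sets, and the same fit with the set as a term are both given. "Rose" and "fell" are used of an adjusted p under 0.05 in the fit with the set. No gene of the whole table passed in the planned fit in any comparison of times, with 333 to 660 genes at an unadjusted p under 0.05 and 1 gene in its F test over time (0.00911%).

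B2m was among the most abundant transcripts of the skin at every time, ranking between 81 and 210 in the libraries. In set 1 it measured 701 FPKM in unirradiated skin and 636, 591, 595, 481 and 591 FPKM at 0.5, 2, 6, 12 and 24 h. In set 2 it measured 796 FPKM in unirradiated skin and 737, 859, 728 and 746 FPKM at 2, 6, 12 and 24 h. In set 3 it measured 570, 465 and 702 FPKM at 0.5, 2 and 6 h. All irradiated libraries of set 1 lay below the unirradiated one, while in set 2 the 6 h library lay above it, so the courses crossed and the groups overlapped. The group means ran from 749 ± 66.9 FPKM (SD, n = 2) in unirradiated skin to 598 ± 136 FPKM (SD, n = 3) at 2 h. Between these, in falling order, stood the means of the libraries taken after 6 h (719 ± 133), 24 h (668 ± 110), 12 h (604 ± 175) and 0.5 h (603 ± 46.9 FPKM). No neighbours in that order differed beyond their SD. The groups do not hold the same sets, so the order carries the sets as well as the times. The 2 h mean includes the 465 FPKM of set 3, and with the set as a term B2m was lowest at 12 h (log2 change -0.34).

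H2-K1, the H-2K heavy chain, stood below its unirradiated level at each later time of sets 1 and 2. In set 1 it measured 378 FPKM in unirradiated skin and 276, 289, 322, 300 and 281 FPKM at 0.5, 2, 6, 12 and 24 h. In set 2 it measured 239 FPKM in unirradiated skin and 190, 218, 219 and 170 FPKM at 2, 6, 12 and 24 h. In set 3 it measured 256, 269 and 348 FPKM at 0.5, 2 and 6 h. All 9 irradiated libraries of sets 1 and 2 were lower than the unirradiated library of their set, though the 2 unirradiated libraries lie so far apart that the groups overlapped. At 24 h the level was 0.743 of the unirradiated one in set 1 and 0.713 in set 2. The group means went from 308 ± 98.6 FPKM (SD, n = 2) in unirradiated skin through 296 ± 69.1 (6 h), 266 ± 14.3 (0.5 h), 260 ± 57.4 (12 h) and 249 ± 52.6 (2 h) to 226 ± 78.2 FPKM (SD, n = 2) at 24 h, with neighbours within their SD. These means, too, mix different sets.

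H2-D1, the H-2D heavy chain, differed more between library sets than between times. In set 1 it measured 384 FPKM in unirradiated skin and 303, 341, 390, 295 and 314 FPKM at 0.5, 2, 6, 12 and 24 h. In set 2 it measured 85 FPKM in unirradiated skin and 82.8, 90.9, 91.4 and 80.6 FPKM at 2, 6, 12 and 24 h. In set 3 it measured 115, 134 and 141 FPKM at 0.5, 2 and 6 h. Within set 2 the lowest and highest libraries were 80.6 and 91.4 FPKM, and every library of set 1 stood above every library of the other sets. Its residual SD on the log2 scale was 1.18 without the set, larger than for 97.5% of genes, and 0.11 with it. The relatives H2-L, H2-Q9 and H2-T9 were listed at 0 in all 8 libraries of sets 2 and 3 and above 0 throughout set 1. Whether that bears on the level of H2-D1 was not tested. The group means, 186 ± 137 FPKM (SD, n = 3) at 2 h to 235 ± 212 FPKM (SD, n = 2) in unirradiated skin, thus carry mainly the sets.

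**Figure D1:**
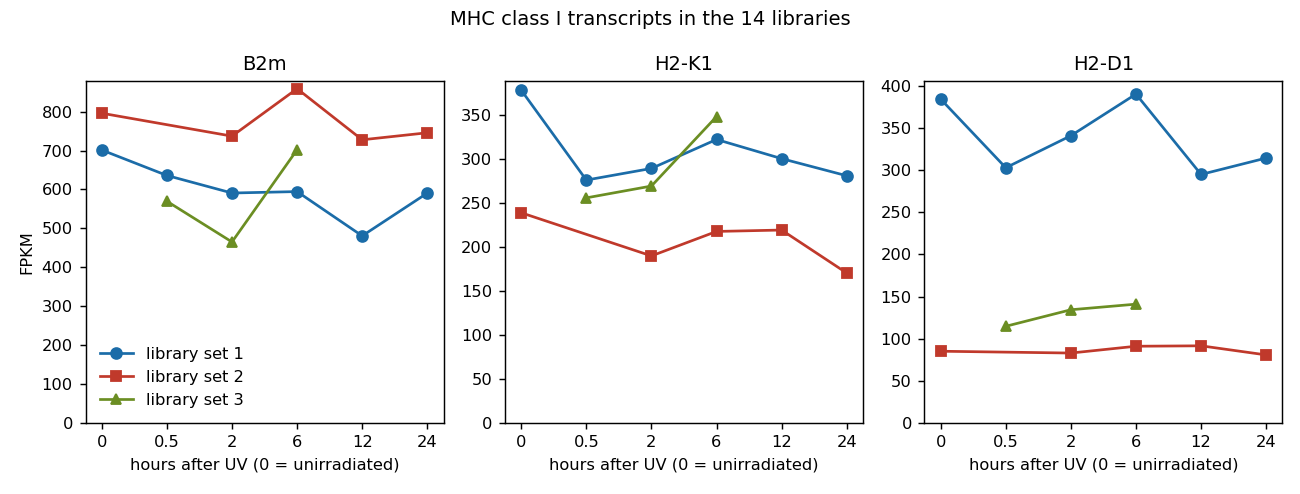
FPKM (linear axis from 0) of B2m, H2-K1 and H2-D1 against hours after UV, not to scale in time, 1 point per library and 1 line per library set; set 2 has no 0.5 h library. B2m lies between 465 and 859 FPKM, and H2-D1 lies at 295 to 390 FPKM in set 1 and at 80.6 to 141 FPKM in the other sets.

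None of the 3 genes passed in either limma fit at any time. With the set as a term, B2m differed from unirradiated skin by log2 changes of -0.071, -0.25, 0.024, -0.34 and -0.17 at 0.5, 2, 6, 12 and 24 h. The lowest of these, at 12 h, had an SE of 0.160 and a limma adjusted p of 0.303. H2-D1 gave -0.26, -0.086, 0.046, -0.14 and -0.18 at the same times, with limma adjusted p-values of 0.558 to 0.852. H2-K1 was below 0 throughout, at -0.46, -0.38, -0.14, -0.23 and -0.46. Its 95% confidence interval at 24 h ran from -0.71 to -0.20, and its limma adjusted p was 0.0824 in this fit and 1 in the planned fit. For comparison, 0.1%, 2.79%, 4.32%, 3.81% and 2.19% of all genes passed at the 5 times in this fit. Of all genes, 0.00911%, 0.228%, 0.902%, 0.574% and 0.328% were called higher and 0.0911%, 2.56%, 3.42%, 3.23% and 1.87% lower.

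Averaged over the irradiated times, H2-K1 was lower by a log2 difference of -0.33 ± 0.091 (SE; 95% interval -0.54 to -0.13), with a limma adjusted p of 0.0777; 3.67% of all genes passed this comparison, 0.255% higher and 3.42% lower. The value was -0.16 ± 0.126 for B2m (adjusted p = 0.548, limma) and -0.12 ± 0.099 for H2-D1 (adjusted p = 0.554, limma). The F test over all times gave limma adjusted p-values of 0.367 for B2m, 0.0916 for H2-K1 and 0.361 for H2-D1, where 4.92% of genes passed. From 6 to 24 h the changes were -0.19, -0.32 and -0.23 for B2m, H2-K1 and H2-D1, with limma adjusted p-values of 0.527, 0.143 and 0.322, and 3.11% of genes passed, 1.91% higher and 1.2% lower. H2-K1 did pass when set 3, which has no unirradiated library, was left out whole: its log2 change was -0.46 at 24 h (limma adjusted p = 0.0481) and -0.33 over the irradiated times (limma adjusted p = 0.0464). Leaving out only the 6 h library of set 3 also brought it past the threshold, at -0.46 (limma adjusted p = 0.0287) and -0.33 (limma adjusted p = 0.0301).

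The class II genes took another course over the same libraries. H2-Aa, the alpha chain of H-2A, went from 133 FPKM in unirradiated skin to 56.5, 64.7, 69.7, 31.4 and 32.2 FPKM at 0.5, 2, 6, 12 and 24 h in set 1. In set 2 it went from 164 FPKM to 77.2, 91.5, 51.3 and 39.7 FPKM at 2, 6, 12 and 24 h. At 24 h it thus stood at 0.242 of the unirradiated level in both sets, where B2m stood at 0.842 and 0.937. Set 3 did not show such low values: H2-Aa measured 172, 228 and 211 FPKM at 0.5, 2 and 6 h, above both unirradiated libraries. Cd74, the invariant chain that guides class II molecules to the peptide loading compartment, went from 267 to 75.7 FPKM at 24 h in set 1 and from 222 to 57.1 FPKM in set 2. Its values in set 3 were 182, 234 and 242 FPKM.

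With the set as a term, 4 of 6 measured class II genes fell at 0.5 h, 5 at 2 h and all 6 at 6, 12 and 24 h, where 0.0911%, 2.56%, 3.42%, 3.23% and 1.87% of all genes fell. Their median log2 changes were -1.21, -0.94, -0.92, -1.77 and -1.84, beside medians over all genes of -0.008 to -0.063 up to 12 h and 0.015 at 24 h. Set 1 alone holds both an unirradiated and a 0.5 h library, so the 0.5 h calls rest on 1 direct pair of libraries. Set 3 enters them only through its 2 and 6 h libraries. In the planned fit the class II genes did not pass either: H2-Aa at 24 h changed by -2.02 ± 0.691 (SE), with a limma adjusted p of 0.939. With the set that SE was 0.131 and the limma adjusted p 0.000172. The 24 h calls of H2-Aa, H2-Ab1, H2-Eb1 and Cd74 held in all 14 fits that left out 1 library, and the 0.5 h calls in 9. Those of H2-DMa and H2-DMb1, a chain each of the loading chaperone H2-M, held in 12 and 11 at 24 h. The 2 h calls held in 7 (H2-DMb1) to 13 (Cd74) of these fits and the 6 h calls in 8 (H2-DMa) to 12, and every class II call at 2 or 6 h was lost without the unirradiated library of set 2. All 12 h calls held in all 14. In full thickness skin, fewer cells of a type and less RNA per cell cannot be told apart. With the set as a term, the 24 h interval for H2-K1, the lowest of the class I genes, began at -0.71. The intervals of H2-Aa, H2-Ab1, H2-Eb1 and Cd74 ended at -1.73, -1.49, -1.69 and -1.56. That of H2-DMa ended at -0.85, and that of H2-DMb1, -1.40 to -0.69, overlapped with the interval of H2-K1. In the planned fit the 24 h interval of H2-K1 ran from -1.248 to 0.335. It overlapped with those of all 6 class II genes, which ended between -0.893 (Cd74) and 0.126 (H2-DMb1).

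**Figure D2:**
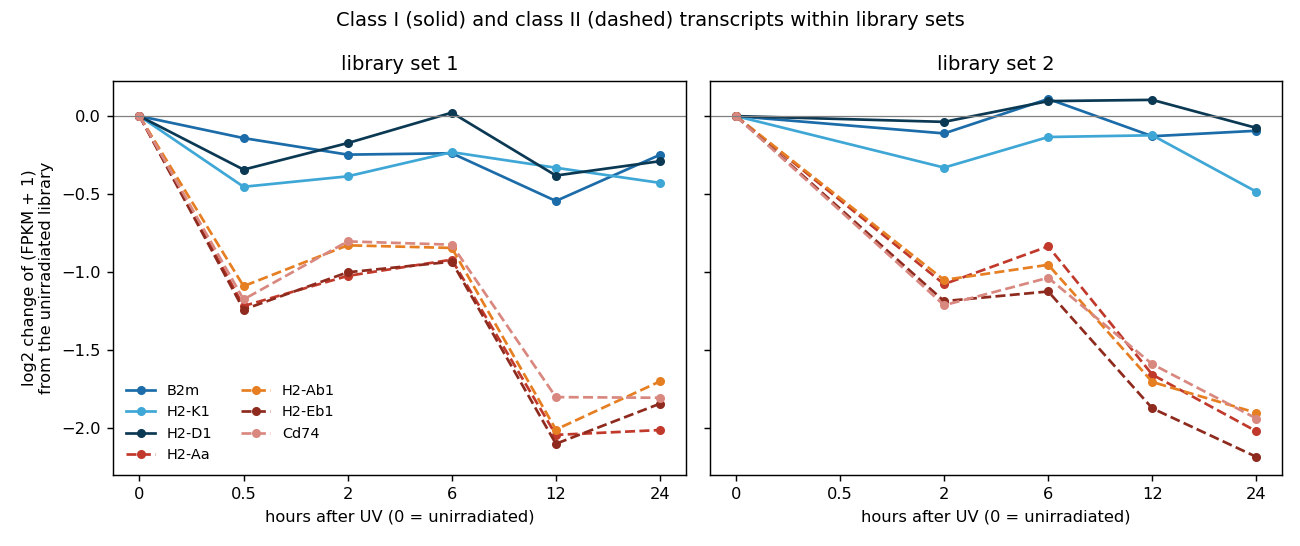
Change in log2(FPKM + 1) from the unirradiated library of the same set, for B2m, H2-K1 and H2-D1 (solid) and H2-Aa, H2-Ab1, H2-Eb1 and Cd74 (dashed), against hours after UV in sets 1 and 2; each point is 1 library, time is not to scale, and set 2 has no point at 0.5 h. At 24 h the class I genes lie between -0.485 and -0.076 and H2-Aa lies at -2.01 and -2.02.

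**Figure D3:**
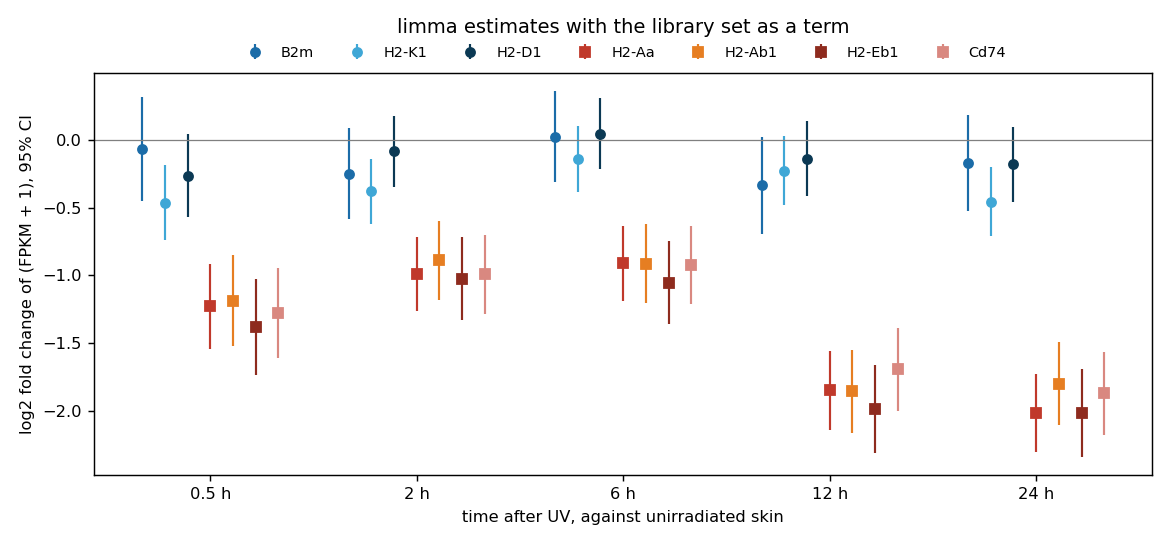
Log2 fold change of (FPKM + 1) against unirradiated skin at each time after UV, from limma with the library set as a term; circles are class I genes, squares class II genes, and bars 95% confidence intervals. The class II intervals lie below 0 at every time, whereas those of B2m and H2-D1 cross 0 throughout.

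The ratio of class I to class II within a library does not depend on its scaling. Against the geometric mean of H2-Aa, H2-Ab1, H2-Eb1 and Cd74, the FPKM ratio of B2m went from 5.95 in unirradiated skin to 18.4 at 24 h in set 1 and from 5.54 to 21.4 in set 2. That of H2-K1 went from 3.21 to 8.76 and from 1.66 to 4.9, and that of H2-D1 from 3.26 to 9.81 and from 0.592 to 2.32. In set 3 the ratio of B2m was 4.34, 2.58 and 4.21 at 0.5, 2 and 6 h, below both unirradiated libraries. That of H2-K1 in set 3 was 1.95, 1.49 and 2.09, above the unirradiated library of set 2 at 0.5 and 6 h. That of H2-D1 was 0.873, 0.744 and 0.844, above the same unirradiated library at each time. Both genes lay below the unirradiated library of set 1. Sets 1 and 2 thus moved one way at the late times, and set 3, which has no late library, lay lower than either at the times it covers.

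With the set as a term, the mean of the irradiated times relative to class II was higher by log2 differences of 1.23 ± 0.156 for B2m, 1.06 ± 0.137 for H2-K1 and 1.27 ± 0.131 for H2-D1 (SE). The limma adjusted p-values were 5.3e-07, 6.65e-07 and 6.13e-08. The same comparison was past the threshold for 98.5% of all genes, with a median of 1.38, so relative to class II the class I genes stood where most of the transcriptome stood. In the planned fit the values were 0.84, 0.85 and 0.98, with limma adjusted p-values of 0.296, 0.267 and 0.387, and 0% of genes passed. Measured instead against 19 genes of antigen-presenting cells, with the set as a term, B2m was higher by 0.64 (limma adjusted p = 0.0265) and H2-D1 by 0.67 (limma adjusted p = 0.0175). H2-K1 gave 0.46, with a limma adjusted p of 0.0924. By this measure 8959 of 10980 genes passed. Without the set the values were 0.34, 0.48 and 0.35 for B2m, H2-D1 and H2-K1, with limma adjusted p-values of 0.793, 0.812 and 0.79, and 0 genes passed.

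**Figure D4:**
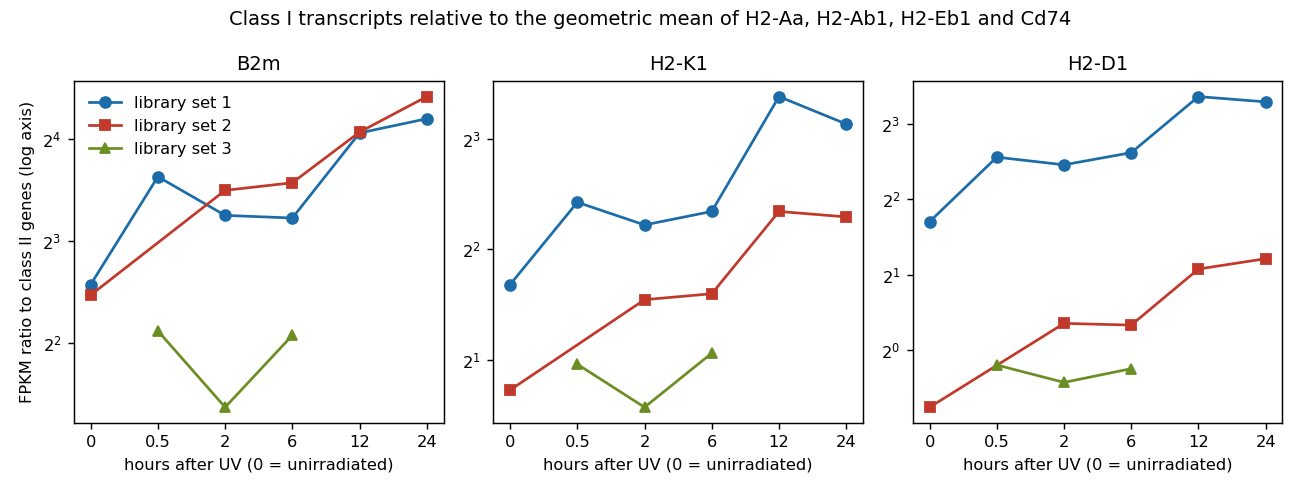
FPKM ratio of each class I gene to the geometric mean of H2-Aa, H2-Ab1, H2-Eb1 and Cd74 in the same library (log axis), against hours after UV, not to scale in time, 1 line per library set. B2m reaches 18.4 and 21.4 at 24 h in sets 1 and 2 and stays at 2.58 to 4.34 in set 3.

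Most measured markers of the antigen-presenting cells themselves lay below 0, and some of those fell. Of the 35 listed genes 19 were measured. With the set as a term 19, 19, 18, 18 and 15 of them lay below 0 at 0.5, 2, 6, 12 and 24 h. Of all genes, 51.5%, 59.0%, 52.3%, 54.7% and 46.7% lay below 0 at these times. Of the 19, 0, 7, 4, 6 and 4 fell, where 0.0911%, 2.56%, 3.42%, 3.23% and 1.87% of all genes fell. The median log2 changes of the 19 were -1.12, -0.93, -0.73, -1.04 and -0.41. The 7 calls at 2 h held in only 4 to 7 of 14 fits without 1 library, and each was lost without either unirradiated library. Cd207, the langerin of Langerhans cells, went from 4.02 to 2.06 FPKM at 24 h in set 1 and from 5.39 to 0.585 FPKM in set 2, a log2 change of -1.36 ± 0.265 (SE; limma adjusted p = 0.0265). In set 3 it measured 6.46, 5.02 and 6.46 FPKM. Mgl2, a lectin of dermal dendritic cells and macrophages, fell by 1.84 on the log2 scale at 24 h, and Csf1r, the receptor for macrophage colony stimulating factor, fell by 1.07. The 24 h calls of Cd207 and Mgl2 were lost without the unirradiated or the 24 h library of set 2, and that of Csf1r without either unirradiated library or the 24 h library of set 1. At 24 h Cd14, a lipopolysaccharide receptor of macrophages, stood at 1.81 times its unirradiated FPKM in set 1 and at 7.23 times in set 2 (log2 change 1.53 ± 0.679, SE; limma adjusted p = 0.402). Fcer1g, Tyrobp and Cd68 stood at 2.18, 2.05 and 1.41 times in set 2 and at 0.9, 0.817 and 0.896 times in set 1. Summed over the 19 genes, levels were 286 to 484 FPKM in unirradiated skin, and 142 to 442, 171 to 529, 221 to 501, 139 to 211 and 193 to 481 FPKM at 0.5, 2, 6, 12 and 24 h, and 0 of the 19 was at 0 in any library. At 24 h the sum was 193 FPKM in set 1, from 286 in unirradiated skin, and 481 in set 2, from 484, while set 3 held 442, 529 and 501 FPKM.

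Other cell types moved in the same libraries. Of 6 fibroblast genes 4 fell at 24 h, where 1.87% of all genes fell, and their summed level was 1633 to 3994 FPKM in unirradiated skin and 766 to 1119 FPKM at 24 h. Those calls (Col1a1, Col1a2, Col3a1 and Lum) held in 10 to 12 of 14 fits without 1 library and were lost without the unirradiated or the 24 h library of set 2. Of 7 keratinocyte genes 3 fell at 24 h, with sums of 4763 to 7981 and 2926 to 5620 FPKM. The 6 muscle genes summed to 2542 to 3772 FPKM in unirradiated skin and 4548 to 5766 FPKM at 2 h, and 0 of them passed. Of 3 lymphocyte genes 2 fell at 12 and at 24 h (3.23% and 1.87% of all genes), and 0 of 4 endothelial and 0 of 4 adipocyte genes passed at any time. The keratinocyte markers Krt5 and Krt14 lay at 1054 to 2379 and 1007 to 2325 FPKM, as the labelled tissue would hold. The part of these shifts in the levels of B2m, H2-K1 and H2-D1 was not tested.

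Of 10 other class I genes measured, 9 or 10 lay below 0 at every time with the set as a term, with medians of -0.38 to -0.47, where 46.7% to 59.0% of all genes lay below 0. H2-L, H2-Q9 and H2-T9 are listed at 0 throughout sets 2 and 3, so their direction rests on set 1 alone. Averaged over the irradiated times 1 of the 10 fell, where 3.42% of all genes fell. At single times 1 of the 10 fell, at 12 h, where 3.23% of all genes did. The 12 h call was Mr1, which presents microbial vitamin metabolites to MAIT cells, by 0.77 on the log2 scale (limma adjusted p = 0.0294). Its level was 5.26 and 7.8 FPKM in unirradiated skin and 3.14 and 3.61 FPKM at 12 h, so those groups did not overlap. The call was lost without either unirradiated library or either 12 h library. H2-Q4, a Qa-type heavy chain, measured 56.4 and 43.2 FPKM in unirradiated skin and 28.9 to 40.4 FPKM in the irradiated libraries, again without overlap. Its mean change was -0.51 ± 0.126 (SE), with a limma adjusted p of 0.0559. H2-T23, which encodes Qa-1, a ligand of NK cell receptors, gave -0.29 ± 0.136 (limma adjusted p = 0.304), and Fcgrt, the neonatal Fc receptor chain, gave -0.62 ± 0.191 (limma adjusted p = 0.121).

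Nlrc5, which drives class I and B2m transcription through the X and Y boxes, was lower in every irradiated library. It measured 8 and 8.63 FPKM in unirradiated skin, 4.49 and 3.75 FPKM at 0.5 h, and 3.15, 4.16 and 2.28 FPKM at 2 h. It then measured 3.49, 3.07 and 4.51 FPKM at 6 h, 3.43 and 2.76 FPKM after 12 h, and 5.36 and 4.5 FPKM at 24 h. No irradiated library reached either unirradiated one, set 3 included. With the set as a term Nlrc5 fell by 1.14 on the log2 scale at 2 h (SE 0.208, limma adjusted p = 0.025), by 0.97 at 6 h (SE 0.208, limma adjusted p = 0.0328) and by 1.19 at 12 h (SE 0.220, limma adjusted p = 0.0161). The 24 h value was -0.65 with a limma adjusted p of 0.217, and the mean over the irradiated times was -0.96 ± 0.173 (SE; limma adjusted p = 0.0168).

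The Nlrc5 calls rested on few libraries. They held in 11, 7 and 10 of 14 fits that left out 1 library, at 2, 6 and 12 h, and the mean held in 12. Leaving out either unirradiated library ended each of them, with values between -1.05 and -0.87 for the mean over times in all 14 fits. At 2 h the call was also lost without the 2 h library of set 1, and at 12 h without either 12 h library. At 6 h it was lost in addition without either 0.5 h library, the set 1 library at 2 h, or 6 h libraries of sets 1 and 2 taken singly. Of the 13 measured regulators, 0, 3, 1, 1 and 0 fell at the 5 times and 0 rose, where 2.56%, 3.42% and 3.23% of all genes fell at 2, 6 and 12 h. The others that fell, both at 2 h, were Nfya, a subunit of the factor that binds the CCAAT box, by 0.75 on the log2 scale, and Nfkb1, the p50 subunit of NF-kappa B, by 0.47. The first call held in 12 of 14 fits without 1 library, the second in 2. Rfx5, Rfxap and Rfxank, the X box complex, did not pass at any time, nor did Irf1.

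**Figure D5:**
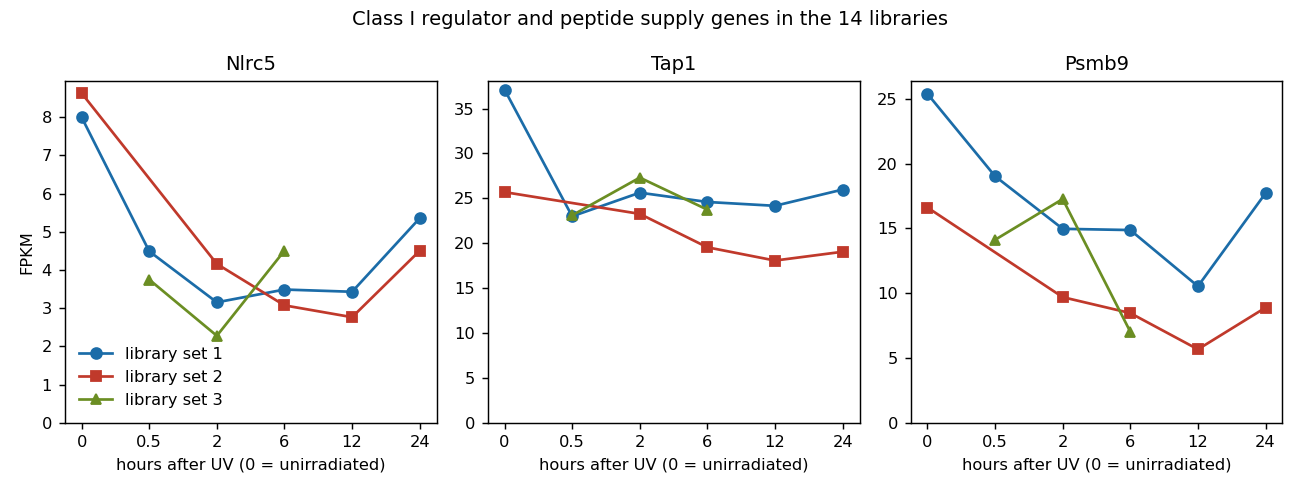
FPKM (linear axis from 0) of Nlrc5, Tap1 and Psmb9 against hours after UV, not to scale in time, 1 point per library and 1 line per library set; set 2 has no 0.5 h library. Nlrc5 lies at 8 and 8.63 FPKM in unirradiated skin and at 2.28 to 5.36 FPKM in the irradiated libraries.

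Of the genes that supply and load class I peptides, some fell at 6 and 12 h. Tap1, a chain of the pump that carries peptides into the endoplasmic reticulum, measured 37.1 FPKM in unirradiated skin of set 1 and 23, 25.6, 24.6, 24.2 and 26 FPKM at 0.5, 2, 6, 12 and 24 h. In set 2 it measured 25.7 FPKM and then 23.3, 19.5, 18.1 and 19.1 FPKM at 2, 6, 12 and 24 h. It fell by 0.49 on the log2 scale at 6 h (limma adjusted p = 0.0307) and by 0.54 at 12 h (limma adjusted p = 0.0241). Both unirradiated libraries stood above all irradiated libraries of their own set.

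Psmb9, a catalytic subunit of the immunoproteasome that cuts such peptides, went from 25.4 FPKM in unirradiated skin to 10.5 FPKM at 12 h in set 1 and from 16.6 to 5.67 FPKM in set 2. It changed by -0.999 on the log2 scale at 6 h (limma adjusted p = 0.0319) and by -1.30 at 12 h (limma adjusted p = 0.0119), and stood at 17.7 and 8.89 FPKM at 24 h. Tap2, the partner of Tap1, fell at 6 h by 0.43 (limma adjusted p = 0.046), a call that held in 2 of 14 fits without 1 library. The 12 h calls of Tap1 and Psmb9 held in 10 of 14 such fits and were lost without either unirradiated or either 12 h library. Their 6 h calls held in 6 and 7, and both were lost without either unirradiated library, either 0.5 h library, either 12 h library or the 6 h library of set 2, that of Tap1 also without the 6 h library of set 1.

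Of the 13 loading genes, 0, 0, 3, 2 and 0 fell at the 5 times and 0 rose against unirradiated skin, beside 3.42% and 3.23% of all genes that fell at 6 and 12 h. From 6 to 24 h all 13 lay above 0 with a median of 0.33, beside a median of 0.028 over all genes, and 1 rose where 1.91% of all genes did. In the planned fit 10 of the 13 lay above 0 and 0 passed. The 1 gene that rose, with the set as a term, was Calr, calreticulin, a chaperone of the loading complex and of glycoproteins in general. It measured 295, 230 and 323 FPKM at 6 h and 432 and 418 FPKM at 24 h (log2 change 0.70 ± 0.132, SE; limma adjusted p = 0.0268). That call was lost without 1 of 3 libraries: those of set 1 at 6 h and of set 2 at 6 and 24 h. B2m, H2-K1 and H2-D1 lay at -0.19, -0.32 and -0.23 over the same interval, and the difference from the loading genes was not tested.

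Interferons are known to raise class I transcription. Of 10 measured interferon-response genes, 1 fell at 2 h, Stat2 by 0.70 on the log2 scale, where 2.56% of all genes fell. At 24 h 1 rose, where 0.328% of all genes rose. Isg15, a ubiquitin-like interferon product, measured 12.3 and 4.87 FPKM in unirradiated skin and 21.3 and 18.3 FPKM at 24 h, a log2 change of 1.23 ± 0.211 (SE; limma adjusted p = 0.0159). The call was lost without the unirradiated or the 24 h library of set 2, and over the 14 fits the change ranged from 0.92 to 1.54. All 10 genes lay above 0 at 24 h, with a median of 0.29. Of all genes 46.7% lay below 0 at 24 h, with a median of 0.015. From 6 to 24 h 2 of the 10 rose, where 1.91% of all genes did. These were Isg15, by 1.35, and Stat2, by 0.53, the latter in 2 of 14 fits without 1 library. B2m, H2-K1 and H2-D1 lay at -0.17, -0.46 and -0.18 at 24 h against unirradiated skin.

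Within sets, the class I genes followed each other loosely. After the mean of each library set was removed, Pearson's r over the 14 libraries was 0.550 between B2m and H2-K1, 0.425 between B2m and H2-D1 and 0.704 between H2-K1 and H2-D1. The libraries share times and processing, so these values are descriptions. H2-K1 was about as close to Cd74 (r = 0.703) and H2-Aa (0.668) as to H2-D1, whereas B2m gave 0.484 and 0.488 with them. The genes most like B2m were Zfp91, Glce, Gdi2, Osbpl1a and Stx12, at r = 0.901 to 0.920. Those most like H2-K1 were Mcoln1, Fam180a, Tspan5, Fmo2 and Sult1a1, at 0.884 to 0.906, and those most like H2-D1 were Bnip3, Ncstn, Vamp2, Slc43a1 and Adipor1, at 0.856 to 0.902. These are the highest of many values over few libraries, and none of them is a class I, class II or loading gene.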

How the data were processed

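RNA-seq of mouse back skin was analysed from 1 table in which the authors deposited FPKM values (14 libraries, 10980 genes). Per the submitters' processing notes, TopHat2 2.1.0 and Cufflinks 2.2.1 were used with mm10; their roles are not given. Columns were assigned to times from headers, which carry no replicate number. The labels do not say that libraries came from separate animals, so p-values measure the spread between these samples, which may be technical. Whole reads were recovered for 10954 genes in sets 2 and 3 (relative tolerance 1e-12) and used for depth alone.

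Values were tested as log2(FPKM + 1), which understates changes of low genes, with limma 3.58.1 in R 4.3.3 over all libraries (intensity trend, two-sided, Benjamini-Hochberg adjustment over 10980 genes, threshold 0.05). The planned fit had group means and 8 residual degrees of freedom. The same fit with the library set as a term had 6. Sets were read from digits (6 or up to 17), headers and correlation: the unirradiated library of set 2 had a mean correlation of 0.964 with set 2 and 0.888 with set 3. Deviations from the time means correlated at 0.411 or more between same-set libraries of different times, over 28 pairs, so sets were treated as pairing the samples; between sets the highest value was 0.492. The fits were also run on simulated data built from the fit with the set, which cannot show which fit suits these data.

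Alternatives were a pseudocount of 0.1, a mean FPKM of at least 1, quantile and median-of-ratios scaling, another comparator, and each library left out. Named genes were the 3 class I genes, members of the gene lists and the 5 genes most alike each. Genes and lists were chosen with earlier results of these data known.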

Additional observations from a re-analysis of the deposited data

How the results depend on the processing

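None of B2m, H2-K1 and H2-D1 passed the threshold between times with another pseudocount, filter or scaling, with the library set as a term, or without 1 library in the planned fit, and the pseudocount and the filter moved no direction or call. With the replicate block (library set as a term) the log2 changes that turned sign against the planned fit were -0.26 for H2-D1 at 0.5 h, 0.024 for B2m at 6 h and 0.046 for H2-D1 at 6 h. That block brought the values relative to class II past the threshold (1.23 for B2m, 1.27 for H2-D1, 1.06 for H2-K1) and gave 11, 306, 474, 418 and 241 called genes at the 5 times, 403 for their mean, 342 from 6 to 24 h, 540 in the F test and 10824 relative to class II, against 0 (F test, 1) without it. It called 57 changes of genes in the class I, loading, regulator, interferon and class II lists, none of which the planned fit called. Quantile scaling gave -0.13 for H2-D1 at 0.5 h and 1, 1 and 3 genes at 24 h, from 6 to 24 h and in the F test. Median-of-ratios scaling gave 0.009 for B2m, 0.001 for H2-D1 and 0.031 for H2-K1 at 6 h, and 0 genes in the F test. Fits added after seeing the data all used the block. Against the antigen-presenting cell list they gave 0.64 for B2m and 0.67 for H2-D1, with 8959 genes. On sets 1 and 2 alone they gave -0.25 and 0.059 for H2-D1 at 0.5 and 6 h, -0.46 and -0.33 for H2-K1 at 24 h and over the irradiated times, and 1.23, 1.26 and 1.06 relative to class II for B2m, H2-D1 and H2-K1. Called genes then numbered 2, 153, 633, 577 and 306 from 0.5 to 24 h, 573 for their mean, 388 from 6 to 24 h, 310 in the F test and 10854 relative to class II. With quantile scaling they gave -0.30 and 0.006 for H2-D1 at 0.5 and 6 h, 1.19, 1.31 and 1.09 relative to class II, and 9, 186, 567, 477 and 285 genes, then 382, 370, 528 and 10890 in the same order. The cause of these differences was not tested.

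Leaving out 1 library at a time in the planned fit, H2-D1 ranged from -1.04 to 1.12 at 0.5 h, -1.30 to 0.87 at 2 h, -1.16 to 1.002 at 6 h, -1.22 to 0.94 at 12 h, -1.26 to 0.90 at 24 h, -1.20 to 0.97 for the mean, -1.08 to 0.87 from 6 to 24 h and -0.245 to 2.199 relative to class II. Every lowest and highest value against unirradiated skin came without an unirradiated library. H2-K1 ranged from -0.51 to 0.15, -0.62 to 0.039, -0.38 to 0.28, -0.56 to 0.10, -0.82 to -0.097 and -0.57 to 0.090 in the same first 6 comparisons. Relative to class II it ranged from 0.380 to 1.321. B2m ranged from -0.403 to -0.22 at 0.5 h, -0.51 to -0.18 at 2 h, -0.21 to 0.056 at 6 h, -0.64 to -0.038 at 12 h, -0.34 to -0.003 at 24 h, -0.34 to -0.16 for the mean, 0.695 to 0.993 relative to class II and -0.27 to 0.070 from 6 to 24 h. Called genes were 0 to 25 at 24 h (25 without the 24 h library of set 1), 0 to 1 from 6 to 24 h and 0 to 1 in the F test. With the block, B2m ranged from -0.18 to 0.072 at 0.5 h, -0.375 to -0.12 at 2 h, -0.10 to 0.15 at 6 h, -0.47 to -0.21 at 12 h, -0.30 to -0.044 at 24 h, -0.28 to -0.031 for the mean and -0.311 to -0.11 from 6 to 24 h, and H2-D1 from -0.36 to -0.14, -0.20 to 0.027, -0.063 to 0.16 and -0.33 to 0.051 at 0.5, 2, 6 and 12 h. H2-K1 ranged from -0.53 to -0.39 at 24 h and -0.37 to -0.30 for the mean, each called only without the 6 h library of set 3. Relative to class II, B2m ranged from 1.08 to 1.40, H2-D1 from 1.13 to 1.42 and H2-K1 from 0.995 to 1.13, called in all 14 fits. Called genes ranged from 0 to 25, 1 to 558, 2 to 960, 51 to 814 and 54 to 383 at the 5 times, 27 to 706 for the mean, 15 to 611 from 6 to 24 h, 113 to 867 in the F test and 10633 to 10851 relative to class II. The highest of each came without the 6 h library of set 3. Depth is unknown in set 1, and reads of H2-K1 and H2-D1 that match relatives limit what their levels mean.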
